A study of Rattus norvegicus with 40 samples.

Results

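Transcripts of 6 genes that mitochondria encode in their own genome were followed in 2 rat skeletal muscles at 2 late ages. The genes were mt-Cyb (ENSRNOG00000031766), mt-Co1 (ENSRNOG00000034234), mt-Co2 (ENSRNOG00000030371), mt-Co3 (ENSRNOG00000030700), mt-Atp6 (ENSRNOG00000031979) and mt-Atp8 (ENSRNOG00000033299). They were taken by these identifiers from the 32545 genes of the count table, 23000 of which had a read in some library, and all 6 passed the filter on low counts in every comparison. The libraries came from 20 male Wistar rats, an outbred laboratory strain, with no treatment named in the labels. There were 10 animals of 20 months and 10 of 22 months, and from each came 1 library of gastrocnemius, in the calf of the hind leg, and 1 of triceps, in the fore leg. The 40 libraries thus formed 4 groups of 10, in which the ages were different animals and the muscles were the same animals. The study collected these ages to follow sarcopenia, the loss of muscle mass and function in old age.

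The mitochondrial genome encodes a small set of respiratory chain subunits, and the rest of each complex is encoded in the nucleus and imported. Its genes are transcribed as long polycistronic precursors that are cut into single messages, mostly at the transfer RNAs that lie between them, so the levels of different messages also depend on how each is processed and degraded. mt-Cyb encodes cytochrome b of complex III, which passes electrons from ubiquinol to cytochrome c. mt-Co1, mt-Co2 and mt-Co3 encode the core of complex IV, cytochrome c oxidase: mt-Co2 takes electrons from cytochrome c, mt-Co1 holds the haem and copper site where oxygen is reduced, and mt-Co3 is the remaining core subunit. mt-Atp6 and mt-Atp8 encode parts of the membrane sector of complex V, the ATP synthase, and share one message in which their reading frames overlap. Skeletal muscle draws on this chain for ATP during sustained work, and oxidative fibres hold more mitochondria than glycolytic ones.

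Total counts ranged from 10983887 to 68580194 reads per library, and even mt-Atp8 had 964 to 21182 reads in each. Levels are given as CPM, the reads of a gene per 1000000 reads of its library, after the library sizes had been scaled by TMM, a trimmed mean of the log ratios between libraries. The reads were not tied to a strand and reads of the overlapping mt-Atp8 and mt-Atp6, or of nuclear copies of mitochondrial DNA, may have been divided or lost in counting, so the level of mt-Atp8 in particular is uncertain. Identifiers could not be paired with symbols beyond the 6 genes, so the muscle identity was not checked against marker genes, and nuclear subunits, mitochondrial regulators and gene lengths were not analysed here.

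The 6 genes together took between 4.39% and 12.2% of all counted reads in a library. In gastrocnemius the share was 8.60% ± 2.09 (SD, n = 10) at 20 months and 8.18% ± 1.50 (SD, n = 10) at 22 months. In triceps it was 8.76% ± 1.70 (SD, n = 10) at 20 months and 6.91% ± 1.39 (SD, n = 10) at 22 months. The triceps of the older animals thus had the lowest mean share, with ranges that overlapped among all 4 groups. The highest share was in 20-month gastrocnemius replicate 1 and the lowest in 22-month triceps replicate 3.

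Read counts, which are not divided by gene length and so do not rank transcript levels, kept a fixed outer order. mt-Co1 had the most reads of the 6 genes in 40 of 40 libraries, and mt-Atp8 the fewest in 40 of 40. mt-Co1 was the single most counted gene of the whole table in 5 libraries and never ranked below place 5. On average it took 38.1% of the reads of the 6 genes, against 18.4% for mt-Co3, 14.8% for mt-Co2, 14.7% for mt-Atp6, 13.7% for mt-Cyb and 0.321% for mt-Atp8. The places between were less stable: the most common order, mt-Co3, mt-Co2, mt-Atp6 and mt-Cyb, was found in 18 libraries.

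The level of mt-Cyb, the complex III member, had a lower mean at 22 than at 20 months in both muscles. In gastrocnemius it ranged from 8264 to 18523 CPM at 20 months (median 11168) and from 5923 to 13901 CPM at 22 months (median 10669). In triceps it ranged from 8913 to 15914 CPM at 20 months (median 12368) and from 7034 to 13236 CPM at 22 months (median 9721). By mean level the order was 20-month triceps, 20-month gastrocnemius, 22-month gastrocnemius and 22-month triceps, and the ranges of all neighbours in this order overlapped.

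The complex IV members followed the same order of group means, with 20-month triceps first and 22-month triceps last. mt-Co1, the catalytic subunit, ranged from 23662 to 47787 CPM in 20-month triceps (median 34842) and from 17963 to 37407 CPM in 22-month triceps (median 26286). In gastrocnemius mt-Co1 ranged from 20121 to 61305 CPM at 20 months (median 30586) and from 14672 to 40674 CPM at 22 months (median 30025). The widest spread of mt-Co1 was that of 20-month gastrocnemius, where replicate 1 reached 61305 CPM.

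mt-Co2, which receives electrons from cytochrome c, ranged from 9954 to 17379 CPM in 20-month triceps (median 14114) and from 6074 to 14677 CPM in 22-month triceps (median 10491). Its gastrocnemius levels ran from 9523 to 16768 CPM at 20 months (median 12524) and from 6783 to 16200 CPM at 22 months (median 10942). mt-Co3 showed the lowest ratio between the mean levels of the 2 ages in triceps, with 18370.4 CPM at 20 months and 12947 CPM at 22 months. Its triceps levels were 11461 to 24347 CPM at 20 months (median 17909.8) and 7474 to 19194 CPM at 22 months (median 13016). In gastrocnemius mt-Co3 ran from 10117 to 24341 CPM at 20 months (median 15677) and from 7196 to 19505 CPM at 22 months (median 13522).

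Of the complex V members, mt-Atp6, the subunit that lines the proton path, ranged from 8531 to 18749 CPM in 20-month triceps (median 13797) and from 6736 to 14773 CPM in 22-month triceps (median 10921). In gastrocnemius mt-Atp6 ran from 8086 to 21142 CPM at 20 months (median 11996.5) and from 5821 to 14500.4 CPM at 22 months (median 10958). mt-Atp8, the small accessory subunit, ran from 198 to 556 CPM in 20-month triceps (median 315) and from 82.3 to 391 CPM in 22-month triceps (median 243). In gastrocnemius it ran from 181 to 480.3 CPM at 20 months (median 248) and from 131 to 299 CPM at 22 months (median 224). The order of group means for mt-Atp8 differed from that of the others only in its last places, where 22-month gastrocnemius (226 CPM) lay below 22-month triceps (245 CPM).

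**Figure D1:**
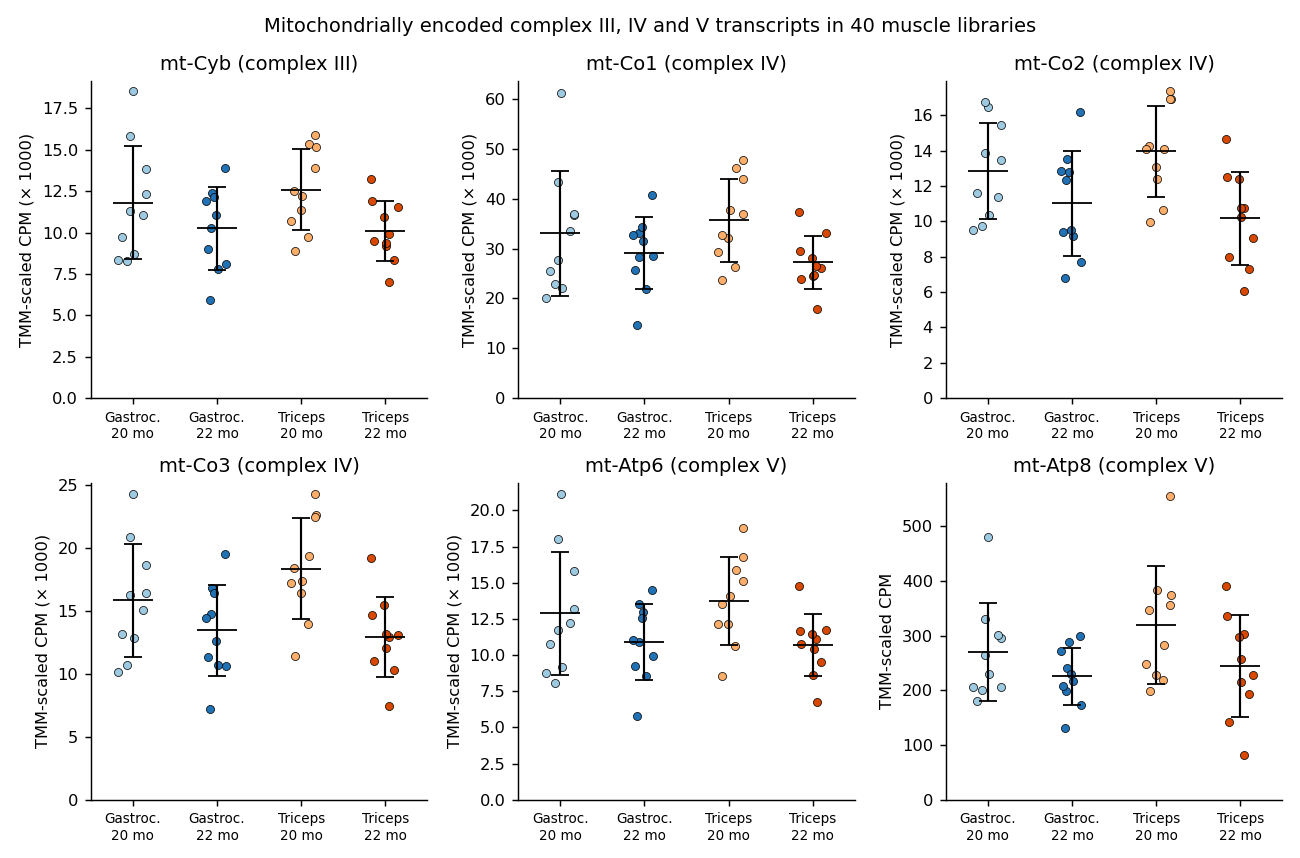
Each panel plots 1 gene, with the TMM-scaled CPM of every library on a linear axis from 0 (divided by 1000 except for mt-Atp8) and the 4 groups side by side; points are libraries (10 per group), the long dash is the mean and the bars are ± 1 SD. The groups overlap in every panel, and 20-month triceps has the highest mean in all 6. Single high libraries stand out for mt-Atp8, at 480.3 CPM in 20-month gastrocnemius and 556 CPM in 20-month triceps. The highest library for mt-Co1, at 61305 CPM, is in 20-month gastrocnemius.

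The same libraries were extreme for most of the 6 genes. In 22-month gastrocnemius, replicate 10 was lowest and replicate 1 highest for all 6. In 20-month triceps replicate 2 was lowest and replicate 10 highest for all 6, and in 22-month triceps replicate 3 was lowest and replicate 7 highest for all 6. In 20-month gastrocnemius replicate 1 was highest for every gene except mt-Co2. Replicate 10 of the 20-month animals was the highest of its group in triceps for all 6 genes and the lowest in gastrocnemius for mt-Co1, mt-Co2 and mt-Co3.

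The spread between animals was above that of the median gene of all abundances in each group, except for mt-Co2 in 20-month triceps. The coefficient of variation (SD over mean) of the 6 genes was 21.3% to 37.8% in 20-month gastrocnemius, against a median of 18.6% over 12980 genes. It was 23.1% to 27.0% in 22-month gastrocnemius, where the median gene had 18.1%. Triceps gave 18.5% to 33.8% for the younger animals and 18.1% to 37.8% for the older ones, beside medians of 18.5% and 17.0%. The abundance class mattered to this background. Genes over 1000 CPM, as all members but mt-Atp8 are, had a median coefficient of 28.3% at 20 months and 28.1% at 22 months in gastrocnemius. In triceps they had 22.2% and 15.1%. Against these medians all members but mt-Atp8, which is not of this class, lay below in 22-month gastrocnemius and above in 22-month triceps. In both 20-month groups these members lay on both sides.

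In gastrocnemius, the comparison of ages asked whether these transcripts differed between 20 and 22 months in the hind limb. All 6 had a lower fitted level at 22 months, and none passed the test. Mean levels differed least in proportion for mt-Co1, from 33029.6 CPM ± 12492 (SD, n = 10) to 29142 CPM ± 7218 (SD, n = 10). They differed most for mt-Atp8, from 269.9 CPM ± 89.4 (SD, n = 10) to 226 CPM ± 52.3 (SD, n = 10). The log2 fold change was -0.17 ± 0.21 (SE) for mt-Co1 and -0.25 ± 0.16 (SE) for mt-Atp8, with adjusted p between 0.579 and 0.776 over the 6 genes by edgeR's quasi-likelihood test with Benjamini-Hochberg adjustment. At an adjusted p under 0.01, 0 of the 6 genes and 0% of the 12659 genes tested were called. At an unadjusted p under 0.05, 0 of the 6 genes stood beside 10.3% of all genes, and neither DESeq2 nor limma-voom called any of the 6.

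The median log2 fold change of the 6 genes in gastrocnemius was -0.22, beside 0.01 over all genes tested. Between 5 and 7 of the 10 older animals lay under the median of the younger ones, depending on the gene, so the groups overlapped widely. The scaling factor of the libraries moved with age in this muscle, with a TMM factor of 1.01 ± 0.10 (SD, n = 10) at 20 months and 1.11 ± 0.13 (SD, n = 10) at 22 months. The share of reads in the 50 most abundant genes was 42.3% ± 3.41 (SD, n = 10) at 20 months and 39.1% ± 4.17 (SD, n = 10) at 22 months. Those 50 were taken in each library and included all of the 6 genes but mt-Atp8, so this share is not separate from their levels. Scaled by library totals alone, the median of the 6 genes was -0.10 and that of all genes 0.14, so the 6 genes lay below the median gene under both scalings. Without 20-month replicate 1 the median of the 6 genes was -0.13. In whole muscle, fewer mitochondria-rich cells or fibres and less of a transcript in each cell cannot be told apart.

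In triceps, the same question was put to the fore limb, and the differences between ages were larger, though again none passed the adjusted test. The mean level of mt-Co3 was 18370.4 CPM ± 4007 (SD, n = 10) at 20 months and 12947 CPM ± 3159 (SD, n = 10) at 22 months, a ratio of 0.705. The ratio was 0.728 for mt-Co2, with 13974 CPM ± 2579 (SD, n = 10) at 20 months and 10176 CPM ± 2629 (SD, n = 10) at 22 months. The ratio of the mean level at 22 months to that at 20 months was 0.763 for mt-Co1, 0.766 for mt-Atp8, 0.776 for mt-Atp6 and 0.804 for mt-Cyb. For each gene except mt-Atp8, 9 of the 10 older animals lay under the median of the younger ones, and for mt-Atp8 8 of 10 did. The groups still overlapped for every gene: from 6 older animals (mt-Co2) to 9 (mt-Co1 and mt-Atp6) lay within the range of the younger ones.

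By edgeR's quasi-likelihood test, the complex IV genes mt-Co3 (log2 fold change -0.50 ± 0.15 SE, p = 0.00235, adjusted p = 0.513) and mt-Co2 (-0.45 ± 0.14 SE, p = 0.00397, adjusted p = 0.513) had the smallest p-values of the 6. mt-Co1 had a log2 fold change of -0.39 ± 0.14 SE (p = 0.0103, adjusted p = 0.520 by edgeR). mt-Atp6 of complex V and mt-Cyb of complex III had log2 fold changes of -0.36 ± 0.14 SE and -0.31 ± 0.12 SE, with unadjusted p of 0.0135 and 0.0173 and adjusted p of 0.520 and 0.525 by edgeR. mt-Atp8 had a difference of similar size, -0.38 ± 0.22 SE, with a wider error (p = 0.0983, adjusted p = 0.635 by edgeR).

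At an adjusted p under 0.01, 0 of the 6 genes and 0% of the 12345 genes tested were called in triceps, and neither DESeq2 nor limma-voom called any of the 6. At an unadjusted p under 0.05, 5 of the 6 genes passed, all lower at 22 months, beside 8.78% of all genes, or 5.03% when only lower genes are counted. These 6 genes share libraries and a common precursor and were chosen with results of these data known, so the 5 are not separate observations. The median log2 fold change of the 6 was -0.38, beside 0.01 over all genes tested. Only 144 genes had a lower log2 fold change than mt-Co3, and 415, the other 5 members included, had a lower one than mt-Cyb, the gene with the smallest difference of the 6. The 5 genes kept an unadjusted p under 0.05 whichever library was left out, the highest being 0.039 for mt-Cyb, while the p of mt-Atp8 ran from 0.0361 to 0.237 as libraries were left out.

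**Figure D2:**
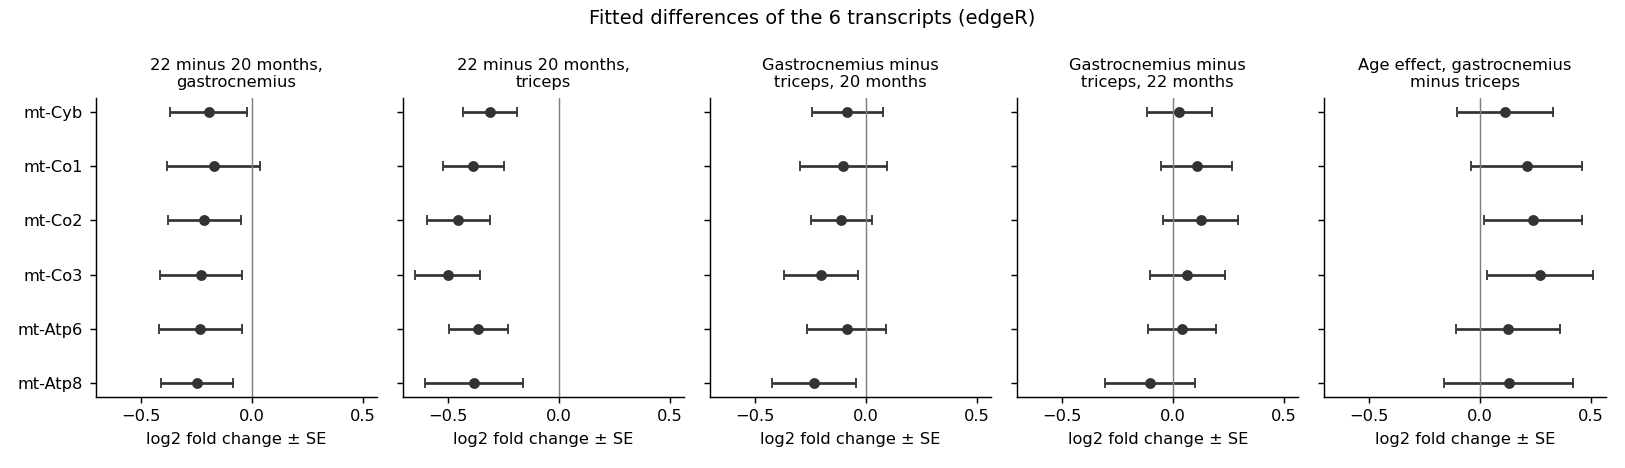
The 5 panels plot the fitted log2 fold change (points) ± 1 SE (bars) of each gene in the age comparison of each muscle, the muscle comparison at each age, and the difference of the age effects between muscles, on a shared axis with a line at 0. In triceps the age differences run from -0.50 (mt-Co3) to -0.31 (mt-Cyb) and every bar lies below 0, while in the muscle comparisons most bars cross 0; no gene passed the adjusted test in any panel.

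Whether the age effect differed between the muscles was tested directly over all 40 libraries, in a fit without a term for the animal. The difference (gastrocnemius minus triceps) was above 0 for all 6 genes, that is, a smaller fitted decrease in gastrocnemius, except that mt-Atp8 was at -0.019 without 20-month replicate 10. It ran from 0.11 ± 0.22 (SE, log2) for mt-Cyb to 0.27 ± 0.24 (SE, log2) for mt-Co3. With p-values from 0.270 to 0.663 and an adjusted p of 0.999 for each by edgeR, 0 of the 6 genes and 0% of the 12980 genes tested were called. At an unadjusted p under 0.05, 0 of the 6 genes passed, beside 3% of all genes, and DESeq2 and limma-voom called none of the 6. The larger differences in triceps are therefore not shown to be particular to that muscle.

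The comparison of muscles asked whether hind limb and fore limb differed at one age. At 20 months all 6 genes were lower in gastrocnemius under TMM scaling, by little, although mt-Cyb (0.0079) and mt-Atp6 (0.0024) had a log2 fold change above 0 with library totals alone. Without replicate 10, mt-Cyb (0.0054), mt-Co1 (0.015) and mt-Atp6 (0.024) had a log2 fold change above 0 and the other 3 genes stayed below. The common sign of the fitted differences thus rested on that animal, although 7 of the 10 animals had all 6 genes lower in gastrocnemius. The mean level of mt-Co3 was 15857 CPM ± 4498 (SD, n = 10) in gastrocnemius and 18370.4 CPM ± 4007 (SD, n = 10) in triceps. The log2 fold change ran from -0.08 ± 0.16 (SE) for mt-Cyb to -0.23 ± 0.19 (SE) for mt-Atp8, with adjusted p from 0.475 to 0.810 by edgeR. With 3.76% of the 12426 genes tested called at an adjusted p under 0.01, 0 of the 6 genes were called. At an unadjusted p under 0.05, 0 of the 6 passed, beside 24.9% of all genes.

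At 22 months no difference between muscles was detected for the 6 genes, in a comparison that called 20.3% of the 12565 genes tested. Their log2 fold changes, gastrocnemius minus triceps, were 0.03 ± 0.15 (SE) for mt-Cyb, 0.11 ± 0.16 (SE) for mt-Co1, 0.12 ± 0.17 (SE) for mt-Co2 and 0.06 ± 0.17 (SE) for mt-Co3. For the complex V genes they were 0.04 ± 0.15 (SE) for mt-Atp6 and -0.11 ± 0.20 (SE) for mt-Atp8, which was 0.064 with library totals alone. The sign of mt-Cyb, mt-Co3, mt-Atp6 and mt-Atp8 turned as single animals were left out. None of the 6 was called, with adjusted p from 0.607 to 0.901 by edgeR. At an unadjusted p under 0.05, 0 of the 6 passed, beside 43.8% of all genes. DESeq2 and limma-voom called none of them at either age. The mean levels of mt-Co1 were 29142 CPM ± 7218 (SD, n = 10) in gastrocnemius and 27213 CPM ± 5337 (SD, n = 10) in triceps. The muscle and age comparisons share libraries, and both age comparisons share animals, so they are not independent of each other.

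The difference between muscles varied widely from animal to animal, and most animals had all 6 genes on one side. The 6 genes of a library share its depth and scaling, so they are not separate observations. At 20 months, 3 animals had all 6 genes higher in gastrocnemius and 7 had all 6 lower, with 0 mixed. At 22 months, 3 animals had all 6 higher, 3 had all 6 lower and 4 were mixed. For mt-Co3 the difference within animals ran from -1.27 to 0.71 at 20 months (mean -0.23 ± 0.64 SD, n = 10, log2) and from -1.03 to 1.17 at 22 months (mean 0.04 ± 0.61 SD, n = 10, log2). For mt-Co1 it ran from -1.25 to 0.72 and from -1.01 to 0.88. The differences of single animals thus lay on both sides of 0 at both ages. Their means ran from -0.24 (mt-Atp8) to -0.12 (mt-Cyb) at 20 months. At 22 months they ran from -0.04 (mt-Atp8) to 0.11 (mt-Co2). Each mean was smaller in size than the SD between animals.

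**Figure D3:**
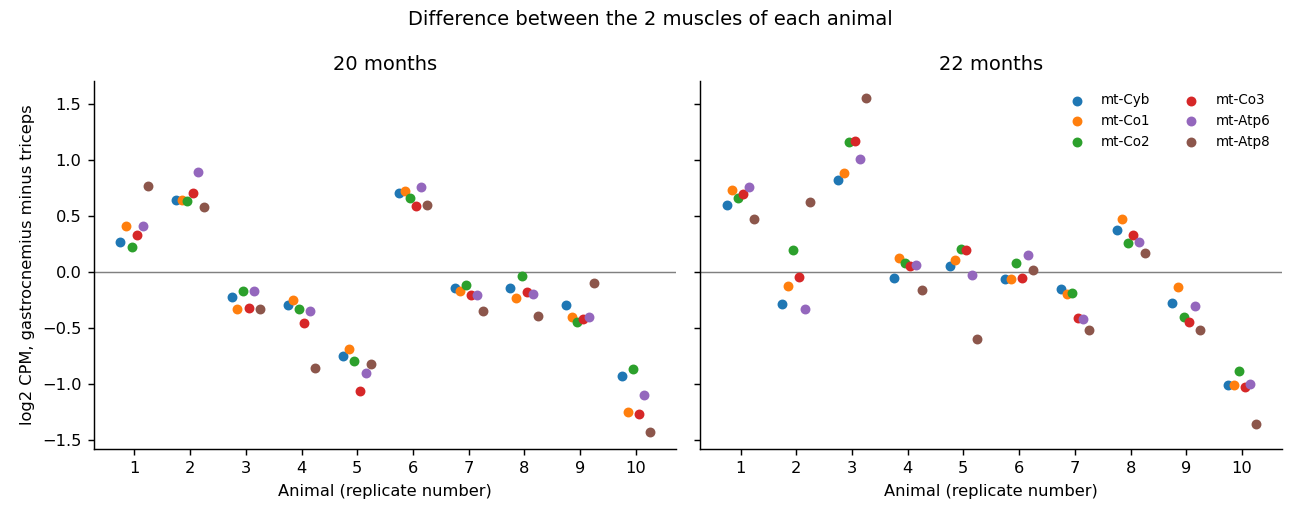
For each animal (horizontal axis, replicate number within its age) the 6 coloured points are the log2 CPM of each gene in gastrocnemius minus that in triceps, with a line at 0. The points of an animal mostly lie close together, with mt-Atp8 often the most apart: at 20 months replicates 1, 2 and 6 have all 6 genes above 0 and the other 7 animals have all 6 below, while at 22 months 4 animals have genes on both sides.

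Each animal gave both muscles, which allowed the levels of a gene in the 2 muscles to be compared over the 20 animals after centring each muscle on its age group. Pearson's r was negative for all 6 genes, from -0.36 (mt-Atp6 and mt-Co3) to -0.06 (mt-Co1), and Spearman's rho ran from -0.30 (mt-Atp6) to -0.12 (mt-Co1). None passed: the permutation p of r was 0.121 at the lowest and the adjusted p over 6 genes ran from 0.364 to 0.796, while the adjusted p of rho ran from 0.459 to 0.625. With the 2 animals whose gastrocnemius level lay farthest from the median left out, mt-Atp6 had r = -0.51 (permutation p = 0.0287, adjusted p = 0.172) and r of the other genes ran from -0.41 to -0.11. Within 20 months r ran from -0.61 (mt-Co2) to 0.0051 (mt-Co1), and within 22 months from -0.40 (mt-Atp6) to 0.0061 (mt-Co2). No positive relation between the muscles of an animal was detected for any of the 6 genes.

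Within a library the 6 genes varied together. Over 40 libraries, with each gene centred on its group means, Pearson's r between members ran from 0.77 (mt-Atp8 with mt-Co1) to 0.97 (mt-Atp6 with mt-Cyb). mt-Co3 had r of 0.96 with both mt-Co2 and mt-Cyb, and mt-Co1 had r of 0.96 with both mt-Atp6 and mt-Cyb. mt-Co2 and mt-Co1, which encode subunits of the same complex, had one of the lowest values, 0.79. mt-Atp8 and mt-Atp6, which share a message, had 0.79 as well. Reads of their overlap may have been divided or lost in counting, so that value is uncertain. These values describe libraries that share depth and scaling within each pair of genes.

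Counts relative to mt-Co1 in the same library do not depend on scaling between libraries and show whether the genes differed unequally. mt-Cyb stood at 36.6% ± 3.61 (SD, n = 10) of mt-Co1 in 20-month gastrocnemius, 35.4% ± 3.02 at 22 months, 35.6% ± 2.11 in 20-month triceps and 37.3% ± 2.56 at 22 months. mt-Co3 stood at 49.4% ± 5.87 (SD, n = 10) and 46.3% ± 4.73 in gastrocnemius at 20 and 22 months, and at 51.9% ± 5.67 and 47.4% ± 5.54 in triceps. mt-Atp8 stood at 0.842% ± 0.149 (SD, n = 10) and 0.787% ± 0.109 in gastrocnemius, and at 0.890% ± 0.165 and 0.878% ± 0.245 in triceps. Between the 2 ages of a muscle, and between the 2 muscles at an age, the means differed by less than the SD of either group. This held for mt-Co2, with group means from 37.4% (22-month triceps) to 40.97% (20-month gastrocnemius), and for mt-Atp6, with group means from 37.6% (22-month gastrocnemius) to 39.6% (20-month gastrocnemius).

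Of the 20 ratio tests (5 genes in 4 comparisons), 0 passed at an adjusted p under 0.05, and 1 had an unadjusted p under 0.05. This was mt-Cyb to mt-Co1 between muscles at 22 months, with a mean difference within animals of -0.08 on the log2 scale, lower in gastrocnemius in 7 of 10 animals (exact sign-flip permutation test, two-sided, p = 0.0176, adjusted p = 0.352). The largest difference was that of mt-Co3 to mt-Co1 between ages in triceps, -0.13 on the log2 scale (permutation test, two-sided, p = 0.0921, adjusted p = 0.637). For mt-Atp6 to mt-Co1 in gastrocnemius, 10 of 10 older animals lay under the median of the younger ones, yet the means differed by only -0.07 (permutation p = 0.184, adjusted p = 0.652). mt-Atp8 stood at 2.19% ± 0.41 (SD, n = 40) of mt-Atp6 over all libraries, from 1.22% to 2.97%.

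**Figure D4:**
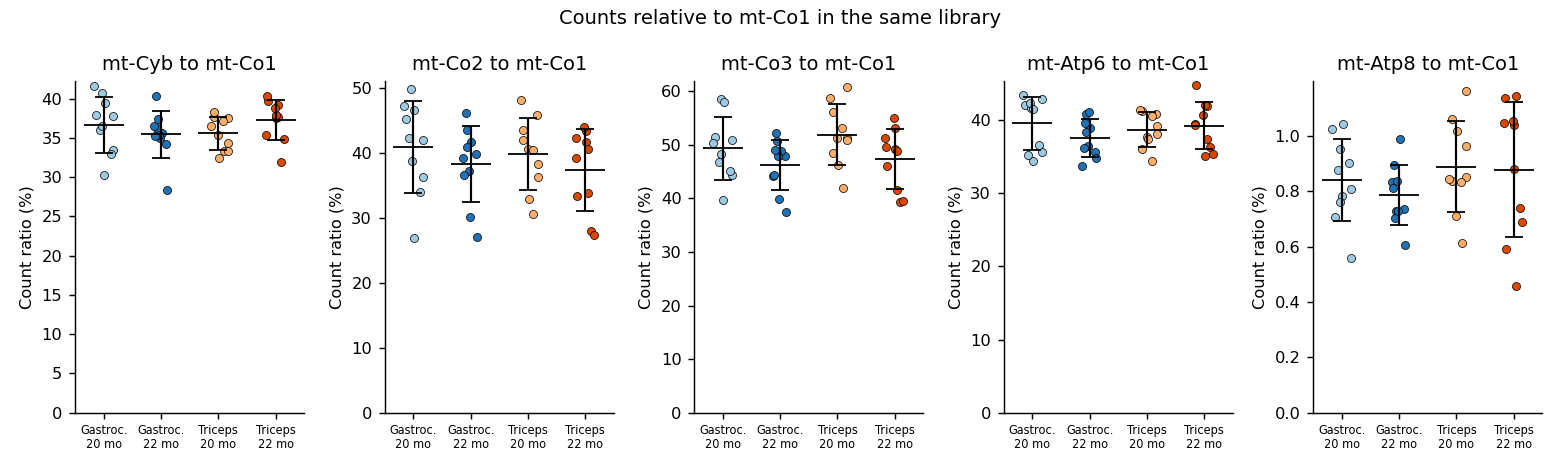
Each panel plots the count of 1 gene as a percent of the count of mt-Co1 in the same library, on an axis from 0, for the 4 groups; points are libraries (10 per group), the long dash is the mean and the bars are ± 1 SD. Groups overlap in every panel, and mt-Atp8 in 22-month triceps is the most spread relative to its mean (0.878% ± 0.245).

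The mean centred log2 level of the 6 genes was correlated over 40 libraries with each of 9747 other genes of at least 5 CPM on average, as a description of likeness. The most alike were ENSRNOG00000033615, with r = 0.94 and a mean of 1305 CPM, and ENSRNOG00000036742, with r = 0.94 and a mean of 481 CPM. The first of these also had its highest mean in 20-month triceps, with 1629.9 CPM ± 365 (SD, n = 10), against 1118 CPM ± 302 (SD, n = 10) in 22-month triceps. In all, 7 genes had r over 0.9 and 75 had r over 0.8, while the median gene had r = 0.03. With 75 other genes over 0.8, the pattern is not shown to be particular to the 6 genes. Pairs of the 6 genes themselves had r from 0.77 to 0.97. Those values set single genes against each other and not against a mean of 6, so the 2 kinds of r are not compared. Whether other mitochondrially encoded genes were among the most alike was not analysed here, since identifiers could not be paired with symbols.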

How the data were processed

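RNA sequencing of polyadenylated RNA was measured in 40 libraries from 20 rats (2 muscles each). The authors deposited raw read counts per Ensembl gene in 1 table, without normalization. The submitters' processing notes name CASAVA 1.8, STAR 2.3.0e, HTSeq and the build Rnor_6.0. The sources used here do not give the annotation release or counting options, and the study's methods describe kallisto for rats, so these counts need not equal its values. The reference table held 47357 genes, 0 of them with an Ensembl identifier and 0 on the mitochondrial chromosome, so no sequence is printed.

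Each comparison used its own 20 libraries, and the difference of the age effects used all 40. Genes with 1 CPM in 10 or more libraries were kept, scaled by TMM and tested over the whole table in R 4.3.3 with edgeR 4.0.16 (quasi-likelihood F-test, two-sided, Benjamini-Hochberg, called at an adjusted p under 0.01). The replicates within a group are separate animals. The main fits held no term for the animal, also where both muscles of the same animals were compared, and the animal as replicate block was an alternative. Levels for correlation were log2 CPM with a prior count of 2. Ratios to mt-Co1 had 0.5 added to both counts and were tested with 100000 label permutations between ages and all 1024 sign flips within animals between muscles, where the smallest possible p is 0.00195, adjusted over 20 tests and called under 0.05. Correlations used 100000 permutations. Alternatives used DESeq2 1.42.0 and limma 3.58.1. Of the tests, only the edgeR fits were tried on simulated counts, drawn independently for each library.

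The members and lists were chosen with earlier results of these data known. All 6 members were named in every comparison, and of the 5 genes most like them the first 2 were named, by identifier. The muscles come from the same animals by the labels. In the check of this pairing, the deviations of same-animal libraries had a median r of 0.17 at 20 months and 0.16 at 22 months. It was over 0.1 in 5 and 7 of 10 animals. Same-numbered libraries of the different ages, which are different animals, had a median r of 0.08 in gastrocnemius and 0.10 in triceps. There r was over 0.1 in 5 of 10 pairs in each muscle. Of all libraries of the other muscle, that of the same animal had the highest r in 5 of 10 animals at 20 months. At 22 months it did in 4 of 10. Between ages the same-numbered library had the highest r in 2 of 10 cases in gastrocnemius and 3 of 10 in triceps. The check thus separated same-animal pairs little from others, and the pairing rests on the labels. No pair of libraries of a group agreed within counting noise (lowest chi-square per gene 11.4 over 180 pairs). Gene lists and cell type markers were not analysed here, since they are by symbol.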

Additional observations from a re-analysis of the deposited data

Results flagged for a closer look

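In 44 sets of 10 libraries (24 of levels and 20 of ratios to mt-Co1), 3 held a library that lay farther from its nearest neighbour, relative to the range of its group, than Dixon's 95% critical value allows, where chance alone gives about 5% of such sets. mt-Atp8 reached 480.3 CPM in 20-month gastrocnemius replicate 1, above the next library at 330.3 CPM. mt-Atp8 also reached 556 CPM in 20-month triceps replicate 10, above the next at 384 CPM. The ratio of mt-Cyb to mt-Co1 was 28.3% in 22-month gastrocnemius replicate 4, below the next at 34.2%.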

How the results depend on the processing

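None of the 6 genes was called in any comparison under any alternative run: DESeq2 size factors, library totals, scaling without the 6 genes, no low count filter, DESeq2, limma-voom, an adjusted p under 0.05, a fit of all 40 libraries (age and muscle comparisons), a replicate block and each replicate left out. The age differences kept their sign over 168 values in each muscle, from -0.30 to -0.03 in gastrocnemius and from -0.59 to -0.25 in triceps (log2), where the lowest adjusted p was 0.216, for mt-Co3 by DESeq2. Signs near 0 turned in other comparisons. With library totals, the median of all genes moved to 0.11 (muscles, 20 months), 0.19 (muscles, 22 months) and 0.14 (age, gastrocnemius), and mt-Cyb (0.0079) and mt-Atp6 (0.0024) between muscles at 20 months and mt-Atp8 (0.064) at 22 months turned; against those shifted medians all 3 stayed lower. With a replicate left out, log2 differences between muscles at 20 months ran from -0.17 to 0.0054 for mt-Cyb, from -0.19 to 0.015 for mt-Co1 and from -0.18 to 0.024 for mt-Atp6, turning without replicate 10. At 22 months they ran from -0.040 to 0.12 for mt-Cyb, from -0.029 to 0.16 for mt-Co3, from -0.044 to 0.13 for mt-Atp6 and from -0.21 to 0.023 for mt-Atp8, and the difference of the age effects for mt-Atp8 ran from -0.019 to 0.29. Between muscles, r of mt-Co1 within 20 months (0.0051) and of mt-Co2 within 22 months (0.0061) had the opposite sign to r over all 20 animals. The cause was not tested. Without the 50 most abundant other genes, the share of reads in the 6 genes was 13.0% and 11.9% in gastrocnemius and 13.8% and 11.0% in triceps at 20 and 22 months. With the animal as replicate block, paired differences of mt-Co3 between muscles were -0.22 at 20 months and 0.05 at 22 months, and 0 of the 6 genes were called. Between ages the numbers pair nothing in the labels (same-numbered libraries correlated over 0.1 in 5 of 10 pairs in each muscle), and with that replicate block mt-Co3 was -0.51 in triceps, with 0 of the 6 genes called. No ratio was called under any alternative, without the replicate block included.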
